A study of Mus musculus with 29 samples.

Results

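All bipolar cells of the adult mouse retina (pan-BC) were compared with blue cones by RNA-seq. The comparison rests on 6 of the 29 libraries of the series, 3 of pan-BC and 3 of blue cones, and covers every gene of the count table, 24062 in all, of which 14024 had enough reads to be tested. Pan-BC were sorted once by fluorescence from retinas of Otx2-GFP+/- mice at postnatal days 47, 44 and 44 (replicates 1 to 3). These animals carry 1 endogenous Otx2 allele with a GFP cassette at its C-terminus, so the sort rests on a gene that photoreceptors also express. The blue cone libraries were taken over from a previous study of that laboratory and were sorted once from Nrl-eGFP;NrlKO mice at postnatal day 56. In these mice the rod-specifying factor Nrl is lost and the photoreceptors take on the fate of blue (short wavelength) cones, so Nrl-/- photoreceptors stand in for native blue cones. Cell class, age, reporter line and study differ together between the groups and cannot be told apart. Another 3 populations entered the same model and are given as points of reference, with 3 libraries each: ON-BC (single sort) and OFF-BC (double sort) from Otx2-GFP+/-; Grm6-YFP+/+ mice at postnatal days 43, 48 and 42, and rods from Nrl-eGFP mice at postnatal day 56. Values for the libraries of a population are given in the order of replicates 1, 2 and 3, as counts divided by the size factors of the authors (normalized counts).

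Cones detect light with an opsin that is coupled, through the G protein transducin and a phosphodiesterase, to cyclic nucleotide-gated channels in the outer segment, a modified cilium. They release glutamate from ribbon synapses in darkness, and light reduces this release. Bipolar cells read the glutamate signal in the outer retina and relay it, again by ribbon synapses, to amacrine and ganglion cells. OFF bipolar cells respond through ionotropic glutamate receptors of the kainate and AMPA classes. ON bipolar cells invert the signal through the metabotropic receptor encoded by Grm6 and its channel Trpm1. Both cell classes arise from related precursors and share the homeodomain factors Otx2 and Crx.

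The pan-BC libraries held 12445524 to 15569580 counted reads and the blue cone libraries 24174923 to 26266746. The 10 most abundant genes took 8.92% to 9.35% of the normalized counts in pan-BC and 14.3% to 14.9% in blue cones. Nrl, the gene targeted in the blue cone mice, was at 657, 764 and 486 in the blue cone libraries, 11476, 16599 and 14469 in rods and 133, 126 and 126 in pan-BC. Its blue cone values thus lay below those of rods but not at 0. Counts per gene do not show which part of Nrl these reads came from, and their source was not tested. Replicates of a group differed by more than counting noise, with a chi-square per gene of 6.79 to 11.2 in pan-BC and 24.5 to 65.4 in blue cones. Pan-BC replicate 1 came from older mice than replicates 2 and 3. Beyond this, nothing in the labels says whether the replicates of a group came from separate animals. The p-values measure a spread between libraries, which the model pooled for each gene over all 15 RNA libraries and not over these 6 alone.

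The lists of bipolar and cone markers went with the labels, with some transcripts of the other class in each. These lists include Grin2b, Opn1sw and Arr3 and were chosen with earlier results of these data known. They are therefore no independent check of the labels. Of 12 bipolar cell markers, 10 were higher in pan-BC and none was lower, and their summed level was 245582 to 271772 in pan-BC against 33447 to 38833 in blue cones. All 8 cone markers were lower in pan-BC, with sums of 45463 to 71865 against 1485873 to 1701174. The cone sum of pan-BC was thus 3.68% of that of blue cones. Of the 8 rod markers, 4 were lower in pan-BC, among them the targeted gene Nrl. Another 4 were higher but set aside as rod transcripts carried over into the sort, by the rule given with the calls. The 8 markers summed to 33444 to 42037 in pan-BC and 172376 to 261848 in blue cones. Without Sag, which dominated the blue cone sum, they summed to 19019 to 23496 and 9254 to 11647. The 7 microglial markers tested (Cx3cr1, C1qa and others) were all lower in pan-BC, with sums over the list of 20.2 to 32.3 against 418 to 931, and blue cone replicate 3 was the highest. The part of cone, rod or microglial transcripts in the gene groups below was not tested, and in bulk libraries fewer cells of a type and less RNA per cell cannot be told apart. Amacrine cell markers summed to 564 to 612 in pan-BC and 1371 to 1604 in blue cones, or 302 to 339 and 10.5 to 42.5 without Slc6a9, a glycine transporter gene. Ganglion cell markers summed to 367 to 392 and 182 to 226.

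Expression differed widely between the classes. Genes were called at an adjusted p below 0.05 in limma's test of a change larger than 2-fold (treat, log2 of the normalized count plus 1). By this test 5077 genes, 36.2% of those tested, were called. Of these, 3162 (22.5% of the genes tested) were higher and 1915 (13.7%) lower in pan-BC, after 15 genes were removed from the higher side by a rule for rod transcripts carried over into the bipolar sort (over 16-fold higher in rods than in blue cones and at least 4-fold higher in rods than in pan-BC). All 3 pan-BC libraries lay above all 3 blue cone libraries for 42.7% of the genes tested, and all 3 blue cone libraries lay above for 35.7%. The median log2 fold change (pan-BC minus blue cones) over all genes tested was 0.16. Scaling by library totals alone moved this median to 0.44 and the share of called genes that were higher from 62.3% to 71.6%. Among the genes called, the estimated change was over 16-fold for 1172 higher and 337 lower genes, and over 64-fold for 391 and 65. No test against these larger folds was run. No blue cone read was counted for 274 of the higher genes, and no pan-BC read for 37 of the lower genes.

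**Figure D1:**
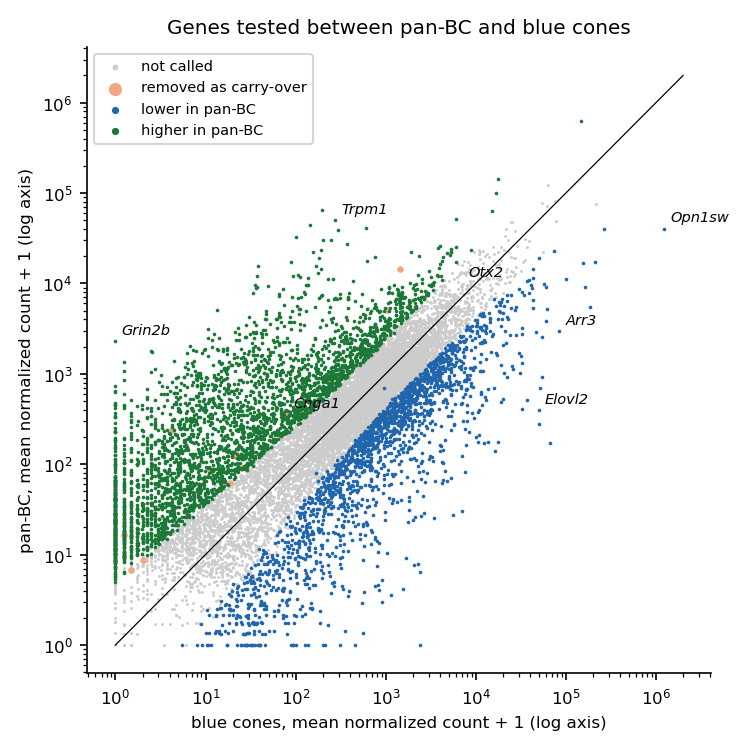
Mean normalized count plus 1 of each of the 14024 genes tested in blue cones (horizontal) and pan-BC (vertical), both on log axes; the line marks equal values. The 3162 genes called higher in pan-BC (green) include many near 0 in blue cones, and the 15 genes removed as rod carry-over are in orange.

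The largest differences in either direction were between presence and near absence. Grin2b, a subunit of NMDA-type glutamate receptors taken as a marker of bipolar cells, was at 2359, 2430.1 and 2106 in pan-BC and had no read in any blue cone library, so it was at least 3063-fold higher. Klk1b22, a kallikrein-family protease gene, was at 638, 878 and 663 and Lamp5, of the lysosome-associated membrane protein family, at 617, 618 and 690.1, again with no blue cone read (at least 968-fold and 855-fold higher). Gnat3, the alpha subunit of the taste G protein gustducin, was at 887, 772 and 872 in pan-BC with a single read over the blue cone libraries, a ratio of 3363 (95% counting interval 603 to 132895). Vstm2b and Hs3st4, which encodes a heparan sulfate sulfotransferase, were at 1806, 1939.9 and 1681 and at 1938, 1543 and 1769 in pan-BC, against 3.01, 1.52 and 0 and 1.5, 3.04 and 0 in blue cones (log2 fold changes 9.71 and 9.66, SE 0.58 and 0.49, adjusted p = 1.19e-09 and 1.71e-10). These genes did not mark all bipolar cells alike: Vstm2b averaged 2502 in ON-BC and 56.6 in OFF-BC, while Lamp5 averaged 43.9 and 2158. Klk1b22 was low in both of these sorts, with a mean of 35.8 in ON-BC and 49.0 in OFF-BC against 726 in pan-BC.

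In the other direction, Myo7a, an unconventional myosin, was at 694, 489 and 479 in blue cones and had 1 read over the pan-BC libraries, a ratio of 1522 (95% counting interval 273 to 60143). Fcamr, a receptor for the constant part of immunoglobulins A and M, had no pan-BC read and was at 311, 349.8 and 263 in blue cones (at least 280.3-fold lower in pan-BC). Tex28 was at 1365, 1538 and 1758 in blue cones and 2.13, 6.05 and 1.22 in pan-BC. Rgl3, an exchange factor of the Ral GDS family, and Pik3ap1, an adaptor of phosphoinositide 3-kinase, were lower likewise (log2 fold changes -8.20 and -8.62, SE 0.74 and 0.66, adjusted p = 2.31e-07 and 2.52e-08). Myo7a averaged 197 in rods, 59.6 in ON-BC and 74.7 in OFF-BC, all above its pan-BC values, whereas Tex28 averaged 22.6, Rgl3 12.6 and Pik3ap1 2.35 in rods, so these 3 genes were low in rods as well as in pan-BC.

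Among the most abundant genes that were higher in pan-BC was Mgarp, a mitochondrial protein gene, at 102431, 112605 and 88566 against 12240.5, 15462 and 23201 in blue cones. Scg2, the neuropeptide precursor secretogranin II, was at 48082, 56939.9 and 50486 against 5280.5, 6256 and 6664. The groups were separate for both, with log2 fold changes of 2.62 (SE 0.22, adjusted p = 5.4e-06) and 3.10 (SE 0.20, adjusted p = 9.14e-08). The noncoding RNA Malat1 was the most abundant of them at 644886, 624514 and 610969.7, against 213519, 150756 and 78455 in blue cones. Its log2 fold change of 2.20 (SE 0.46, adjusted p = 0.0264) rested on blue cone libraries that differed by more than 2-fold, and the call was lost without pan-BC replicate 1, 2 or 3 and without blue cone replicate 3. Of the abundant blue cone genes outside phototransduction, Atp1b2, a beta subunit of the sodium pump, was at 236398, 282694 and 271917 against 43049, 35669 and 40526 in pan-BC, and Map1b, a microtubule-associated protein, at 176123, 146644 and 144558 against 17427, 15717 and 17966. Every blue cone library lay above every pan-BC library for both, with log2 fold changes of -2.73 (SE 0.23, adjusted p = 4.43e-06) and -3.19 (SE 0.16, adjusted p = 4.02e-09).

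**Figure D2:**
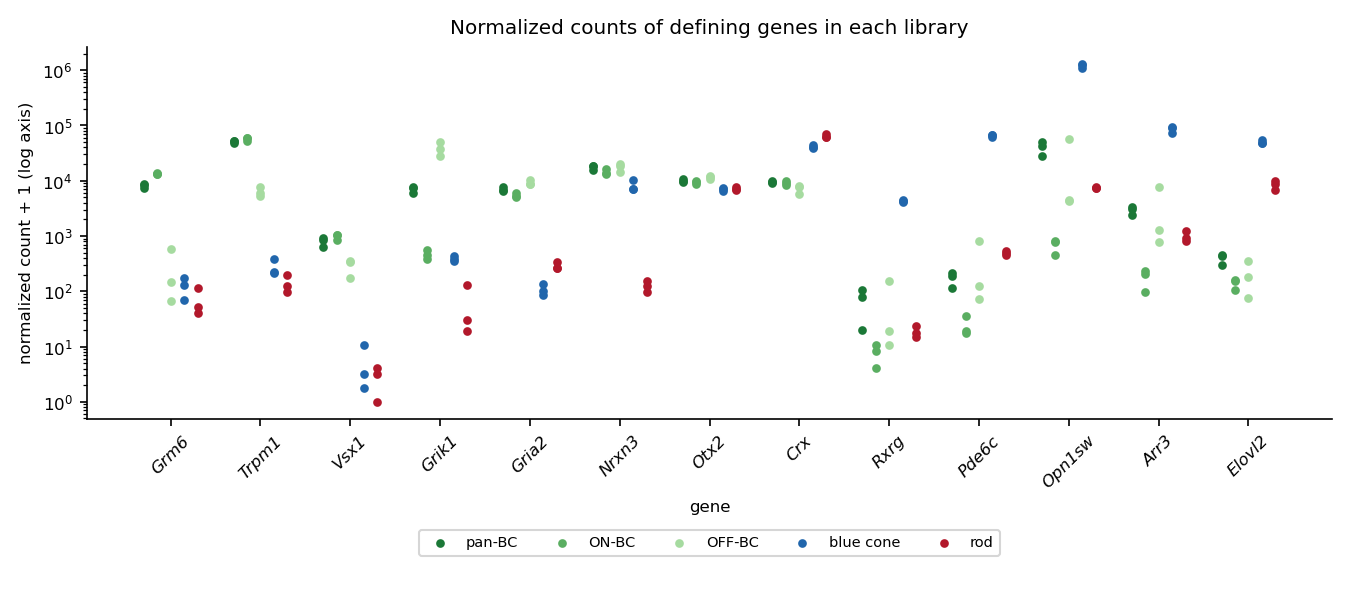
Normalized count plus 1 (log axis) of 13 defining genes in each of the 3 libraries of pan-BC, ON-BC, OFF-BC, blue cones and rods. Grm6 and Trpm1 are high in pan-BC and low in blue cones, Rxrg, Pde6c and Elovl2 the reverse, and Otx2 is at a like level in all 5 populations.

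The genes of cone phototransduction were lower in pan-BC almost throughout. Of 22 tested, 18 were called lower and none higher, with a median log2 fold change of -4.05 against 0.16 over all genes. Opn1sw, the short wavelength opsin that marks blue cones, was at 1108422, 1302223 and 1256124 in blue cones and 50740.4, 28147 and 42309.9 in pan-BC. Arr3, cone arrestin, was at 94244, 88489 and 71844 against 3048, 2367 and 3398, and Pde6c, the catalytic subunit of cone phosphodiesterase, at 67873, 68112 and 62615 against 189, 112 and 213. The groups were far apart for each, with log2 fold changes of -4.96 (SE 0.64, adjusted p = 3.79e-05), -4.86 (SE 0.56, adjusted p = 1.03e-05) and -8.64 (SE 0.58, adjusted p = 4.94e-09). Opn1mw, the middle wavelength opsin, was lower by the same measure at 316, 243 and 277 against 41111, 50465 and 58221. The G protein subunit gene Gnat2 was at 10027, 8547 and 8861 in pan-BC, with a smaller fold change of -4.15 (SE 0.15, adjusted p = 2.73e-11). The channel genes Cnga3 and Cngb3 were at 61.7, 51.4 and 79.5 and 1182, 952 and 1244 in pan-BC against 4631, 4943 and 4963 and 25343, 25444 and 25957 in blue cones, log2 fold changes of -6.24 and -4.51 (SE 0.84 and 0.15, adjusted p = 3.21e-05 and 7.45e-12). Gnb3, Gnb5 and Slc24a4 were not called. Gnb3, the beta subunit of cone transducin that ON bipolar cells also use, was at 77742, 74982 and 76118 in pan-BC and 218447, 218349.7 and 209507 in blue cones, separate between groups but short of the threshold (log2 fold change -1.50, SE 0.23, adjusted p = 0.058). It was called lower under TMM scaling, in the 6 libraries alone, by both edgeR tests, by DESeq2 and after centring by exon length (adjusted p = 3.01e-06 to 0.0336).

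The cone transcripts of the bipolar sorts were uneven. Opn1sw was at 822, 772 and 447 in the ON-BC libraries and 4477, 4314 and 55813 in the OFF-BC libraries, and 7 of the 8 cone markers were higher in OFF-BC than in ON-BC by the same test. Of all genes tested, 3.6% were called higher in OFF-BC and 2.95% in the other direction. Pan-BC replicate 2 had the lowest value of Opn1sw, Arr3, Pde6c and Rxrg among the pan-BC libraries. The rod markers behaved in the opposite way, with 7 of 8 higher in ON-BC.

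Rod genes were divided. Of 14 rod phototransduction genes and rod factors, 7 were lower in pan-BC (50%, against 13.7% of all genes tested). Another 4 were removed as carry-over and 3 were not called, and the median log2 fold change over the list was -0.88. Nrl, the gene targeted in the blue cone mice, was among the 7 lower genes, and the source of its blue cone reads was not tested. Pde6a and Pde6g, subunits of rod phosphodiesterase, were at 155, 138 and 185 and 6279, 4448 and 5397 in pan-BC against 4443, 4298 and 3713 and 40423, 44522 and 44608 in blue cones (log2 fold changes -4.70 and -3.02, SE 0.33 and 0.34, adjusted p = 3.69e-08 and 5.38e-05). Sag, rod arrestin, which cones of these mice also express, was at 18790.5, 14424 and 18542 against 160729, 225779 and 252594 (log2 fold change -3.61, SE 0.47, adjusted p = 9.92e-05). Gnat1, the alpha subunit of rod transducin, showed the reverse order at 5177, 4566 and 5496 in pan-BC and 1233, 1109 and 785 in blue cones, but averaged 498719 in rods and fell under the carry-over rule, as did Cnga1 and Nr2e3.

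Genes of the outer segment and the matrix around it were lower in pan-BC for 24 of 27 tested, and none was higher, with a median log2 fold change of -3.98. Prom1, a membrane protein of nascent disc membranes, was at 32303, 33686 and 30752 in blue cones and 435, 312 and 465 in pan-BC. The interphotoreceptor matrix proteoglycan gene Impg2 was at 9177, 7929.7 and 8309.6 against 227, 172 and 277, and Aipl1, a chaperone of phosphodiesterase, at 46004, 52652 and 57888 against 712, 529.6 and 819. Each blue cone value exceeded each pan-BC value, with log2 fold changes of -6.34 (SE 0.42, adjusted p = 8.9e-09), -5.25 (SE 0.39, adjusted p = 5.96e-08) and -6.26 (SE 0.35, adjusted p = 1.31e-09). Rom1, a tetraspanin of disc rims, was not called (12631, 13233 and 11929.5 in pan-BC, 21702, 28646 and 31977 in blue cones; log2 fold change -1.11, SE 0.17, adjusted p = 0.576, but called lower by edgeR's F test and after centring by exon length), nor were the ciliary genes Rpgr and Spata7, whose groups overlapped. Intraflagellar transport and BBSome genes, which serve all cilia, were lower for 18 and higher for 3 of 41 (median -1.08). These were 43.9% and 7.32%, against 13.7% lower and 22.5% higher of all genes tested. Ift57 was at 61.7, 58.5 and 53.8 in pan-BC against 1122, 1110.2 and 992 (log2 fold change -4.19, SE 0.17, adjusted p = 7.49e-11) and Arl6, a BBSome-associated GTPase, at 1112, 1063 and 1049.8 against 9286, 11186 and 13203 (log2 fold change -3.37, SE 0.13, adjusted p = 7.58e-11), whereas Ift20 was higher, at 5225, 5579 and 5042 against 1356, 1436 and 1568 (log2 fold change 1.86, SE 0.10, adjusted p = 7.36e-07; the call was lost when libraries were centred by exon length).

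Lipid and retinoid metabolism followed the outer segment genes in part. Of 34 genes of fatty acid synthesis and oxidation, 16 were lower in pan-BC (47.1%, against 13.7% of all genes tested). Another 4 were higher (11.8%, against 22.5%), and the median was -1.18. Elovl2 and Elovl4, elongases that make long polyunsaturated and very long fatty acids, were at 48843, 54022 and 47285 and 28837, 34093 and 34671 in blue cones against 454, 301 and 440.5 and 3001, 2828 and 2523 in pan-BC (log2 fold changes -6.99 and -3.55, SE 0.36 and 0.14, adjusted p = 3.55e-10 and 8.54e-11). The carnitine palmitoyltransferases went in opposite directions. Cpt1a was at 299.9, 251 and 341 in pan-BC against 7461, 7221 and 6767 in blue cones, and the neuronal form Cpt1c at 3577, 3246 and 3682 against 82, 152 and 135. Neither pair of groups overlapped (log2 fold changes -4.59 and 4.87, SE 0.16 and 0.27, adjusted p = 1.12e-11 and 1.97e-09). Of 18 retinoid genes tested, 6 were lower (33.3%, against 13.7% of all genes tested) and 2 higher (11.1%, against 22.5%). Rbp3, the interphotoreceptor retinoid-binding protein, was at 181503, 182357 and 194514 in blue cones and 5593, 4896 and 6038 in pan-BC (log2 fold change -5.08, SE 0.16, adjusted p = 3.48e-12).

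Of 27 transcription factors tested that are known for photoreceptor development or identity, 14 were lower (51.9%, against 13.7% of all genes tested). Another 4 were higher (14.8%, against 22.5%). Rxrg, a retinoid X receptor of cones, was at 4179, 4430.0 and 4260.3 in blue cones and 76.6, 19.2 and 104 in pan-BC, and Prdm1, a zinc finger repressor, at 2090.1, 1876 and 2019 and 23.4, 7.06 and 39.2. Ankrd33 and Samd7 were at 18088, 20334 and 21262 and 1982, 1802 and 1671 in blue cones against 626, 354 and 589 and 38.3, 24.2 and 28.1. The blue cone libraries were higher throughout (-6.29, -6.65, -5.29 and -5.89 on the log2 scale; SE 0.75, 0.62, 0.50 and 0.32, adjusted p = 8.4e-06, 4.48e-07, 9.3e-07 and 8.85e-10). Crx was at 39867, 43789 and 40567 against 9509, 9876 and 9272, a difference of -2.12 (SE 0.14, adjusted p = 2.5e-06). The 4 that were higher in pan-BC were Neurod2, Tbx2, Bhlhe40 and Nr2f1. Tbx2, a T-box factor, was at 619, 629 and 596 in pan-BC and 9.03, 1.52 and 0.74 in blue cones, and the transcriptional repressor gene Bhlhe40 at 7137, 7242 and 7078 and 65.4, 40.2 and 163 (log2 fold changes 7.45 and 6.55, SE 0.48 and 0.54, adjusted p = 4.6e-09 and 1.09e-07).

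Bipolar cell transcription factors were higher for 23 of 27, with a median log2 fold change of 4.50. The LIM-homeodomain gene Isl1 was at 24003, 21506 and 20848 in pan-BC against 81.2, 93.3 and 291 in blue cones, and Bhlhe23, a basic helix-loop-helix factor of rod bipolar cells, at 2113, 2007 and 1959 against 6.77, 4.55 and 5.92. Both were separate between groups, with log2 fold changes of 7.39 (SE 0.58, adjusted p = 4.61e-08) and 8.24 (SE 0.25, adjusted p = 8.43e-13). Members of the list differed within the bipolar class, since the means of Isl1 were 26264 (ON-BC) and 611 (OFF-BC) and those of Bhlhe22 21.3 and 377. Otx2 was not called, at 9810.1, 10646 and 9409 in pan-BC against 6538, 7419.7 and 7143 in blue cones (log2 fold change 0.50, SE 0.10, adjusted p = 1), and neither was Etv1. Pan-BC were sorted on GFP from the Otx2 locus itself, and the part of this sort in their Otx2 level was not tested. Six6 and Zbtb18 were lower in pan-BC, Six6 at 799, 787 and 678 against 3976, 4574 and 4653 and Zbtb18 at 43.6, 38.3 and 39.2 against 384, 383 and 266 (log2 fold changes -2.54 and -3.04, SE 0.15 and 0.32, adjusted p = 9.84e-08 and 2.3e-05).

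The cascade by which ON bipolar cells respond to glutamate was higher in pan-BC for 12 of 16 genes (median 5.04). This was 75%, against 22.5% of all genes tested, and 3 were lower (18.75%, against 13.7%). Of the 16, 8 were also higher in ON-BC than in OFF-BC. Grm6 was at 8301, 7402 and 8617 in pan-BC and 68.4, 129.8 and 175 in blue cones, and Trpm1, its effector channel, at 52133, 47907 and 51554 and 219, 214 and 386. Gng13, a G protein gamma subunit, was at 48505, 43975 and 39748 and 77.5, 123 and 227. No values overlapped, and the log2 fold changes were 6.11 (SE 0.55, adjusted p = 4e-07), 7.58 (SE 0.23, adjusted p = 8.44e-13) and 8.40 (SE 0.30, adjusted p = 3.93e-12). Scaled for exon length and library total (CPM per kb), pan-BC had 6040.5 of Gng13, 474 of Trpm1, 89.4 of the G protein alpha subunit gene Gnao1 and 120.2 of Grm6. Gng13 has a summed exon length under 1 kb, a class with a median log2 fold change of 1.18 against blue cones (given below). The part of transcript length in its scaled value was not tested. The orphan receptor gene Gpr179 and the leucine-rich repeat protein gene Nyx, which hold the complex together, were at 12785, 10822 and 12913 and 463, 509 and 475 in pan-BC against 62.4, 72.1 and 144 and 0, 4.55 and 6.66. Both were separate (log2 fold changes 7.11 and 7.11, SE 0.33 and 0.53, adjusted p = 8.92e-11 and 2.44e-08). The 3 members that were lower were Lrit1, Lrit2 and Lrit3, leucine-rich repeat proteins of photoreceptor synapses. Lrit3 was at 593, 494 and 543 in blue cones and 45.7, 28.2 and 47.7 in pan-BC (log2 fold change -3.74, SE 0.67, adjusted p = 0.0015), and Lrit1 remained at 5236, 4859 and 4714 in pan-BC against 13659, 19669 and 20309 (log2 fold change -1.84, SE 0.15, adjusted p = 0.000124).

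Of 25 genes for ionotropic glutamate receptors and their auxiliary subunits, 20 were higher in pan-BC and none was lower (median 4.88). Grik1, the kainate receptor subunit of OFF bipolar cells, was at 6096, 7308 and 7833 in pan-BC against 345, 378 and 432 in blue cones. The AMPA receptor subunit genes Gria1 and Gria2 were at 3274, 3239 and 3137 and 6681, 6492 and 7566 against 12, 27.3 and 25.9 and 84.2, 99.4 and 135. The groups were separate for each of these subunits (log2 fold changes 4.20, 7.23 and 6.04, SE 0.45, 0.40 and 0.15, adjusted p = 7.8e-06, 7.31e-10 and 1.25e-13). Grik1 averaged 38804 in OFF-BC and 469 in ON-BC, whereas Gria1 averaged 3135 and 2935. Of the 25 genes, 7 were higher in OFF-BC than in ON-BC and 1 was higher in ON-BC. Neto1, an auxiliary subunit of kainate receptors, was at 166, 176 and 185 in pan-BC with no blue cone read (at least 234-fold higher), and Gria4 was at 369, 319 and 412 against 0, 3.79 and 2.96 (log2 fold change 7.10, SE 0.62, adjusted p = 1.99e-07). The 5 genes without a call averaged at most 71.1 in either class, and among them Shisa6 and Shisa7 were lower in every pan-BC library (26.6, 33.3 and 51.4 against 76.7, 78.2 and 58.5 for Shisa7). The same order held for 35.7% of all genes tested.

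Receptors for inhibitory transmitters and for modulators were also more abundant in pan-BC. Of 18 GABA and glycine receptor genes, 12 were higher and none lower (median 3.36), and none differed between ON-BC and OFF-BC by the same test. Gabrr1 and Gabrr2, the rho subunits of the slow GABA receptors on bipolar terminals, were at 15499.5, 16325 and 14724 and 30688, 33740.2 and 26574 against 135, 171 and 190.2 and 146, 179.8 and 269. Glra1, a glycine receptor subunit, was at 1064, 1091 and 1099 against 8.27, 3.04 and 8.88. These were wide separations, with log2 fold changes of 6.56 (SE 0.16, adjusted p = 1.23e-13), 7.29 (SE 0.23, adjusted p = 1.26e-12) and 7.24 (SE 0.44, adjusted p = 2.14e-09). Slc12a5, the potassium-chloride cotransporter that sets the direction of GABA currents, was at 7696, 7748 and 8216 in pan-BC against 1412, 1574 and 1554 (log2 fold change 2.38, SE 0.10, adjusted p = 2.2e-09).

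Among 27 metabotropic and amine receptor genes, 19 were higher (70.4%, against 22.5% of all genes tested), with a median of 4.27. The 4 that were lower made up 14.8%, near the 13.7% of all genes tested. Drd2, a dopamine receptor, was at 635, 706 and 693 in pan-BC against 0, 3.79 and 0 in blue cones, and Tacr3, the neurokinin 3 receptor, at 779.7, 601 and 740.2 against 0, 0 and 11.1. They were abundant in different bipolar sorts, where the means of Drd2 were 925 (ON-BC) and 23.1 (OFF-BC) and those of Tacr3 13.1 and 2094. Among the 4 lower genes were the dopamine receptor gene Drd4, the melatonin receptor gene Mtnr1a and Grm8. Drd4 was at 985, 1037 and 1232 in blue cones and 20.2, 44.4 and 60 in pan-BC (log2 fold change -4.80, SE 0.30, adjusted p = 1.01e-08), so the dopamine receptor genes had opposite orders. Grm8, a presynaptic glutamate receptor, was at 545, 396 and 419.7 against 20.2, 22.2 and 17.1 (log2 fold change -4.44, SE 0.29, adjusted p = 2.14e-08). Mtnr1a had no pan-BC read and was at 35.3, 41 and 39.2 in blue cones, at least 35.1-fold lower in pan-BC.

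Ion channel genes had a like distribution. Of 56 potassium channel genes, a list taken by symbol that includes the noncoding RNAs Kcnd3os and Kcnq1ot1, 38 were higher and 2 lower (median 4.33), of 23 calcium channel genes 16 and none (median 4.04), and of 10 sodium channel genes 7 and none (median 2.67). Kcnd2, a channel of A-type potassium currents, was at 313, 362 and 354 in pan-BC, with no blue cone read (at least 457-fold higher), and Kcnj12, an inward rectifier, at 974, 807 and 905 against 6.77, 2.28 and 2.22 (log2 fold change 7.68, SE 0.36, adjusted p = 8.78e-11). Kcnv2, a modifier subunit known from photoreceptors, ran the other way at 10642, 10381 and 10645 in blue cones and 183, 116 and 221 in pan-BC (log2 fold change -5.97, SE 0.27, adjusted p = 8.45e-11). Cacna1f, the calcium channel of photoreceptor and bipolar ribbon synapses, was not called, at 4343, 3787 and 5035 in pan-BC and 8581, 6744 and 5529.6 in blue cones (log2 fold change -0.65, SE 0.15, adjusted p = 1). Its relative Cacna1d was at 967, 861 and 937 against 6.77, 5.31 and 9.62, and Cacna2d3, an auxiliary subunit, at 10104, 9094 and 9360.1 against 33.1, 31.9 and 38.5, both clear of overlap (log2 fold changes 6.84 and 8.07, SE 0.30 and 0.21, adjusted p = 4.46e-11 and 1.27e-13). Scn1a, a voltage-gated sodium channel, was at 440.4, 342 and 455 in pan-BC and had no blue cone read (at least 549.7-fold higher). Hcn3, a channel activated by hyperpolarization, was at 1486, 1459 and 1533 against 23.3, 21.2 and 27.4 (log2 fold change 5.91, SE 0.32, adjusted p = 1.01e-09).

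**Figure D3:**
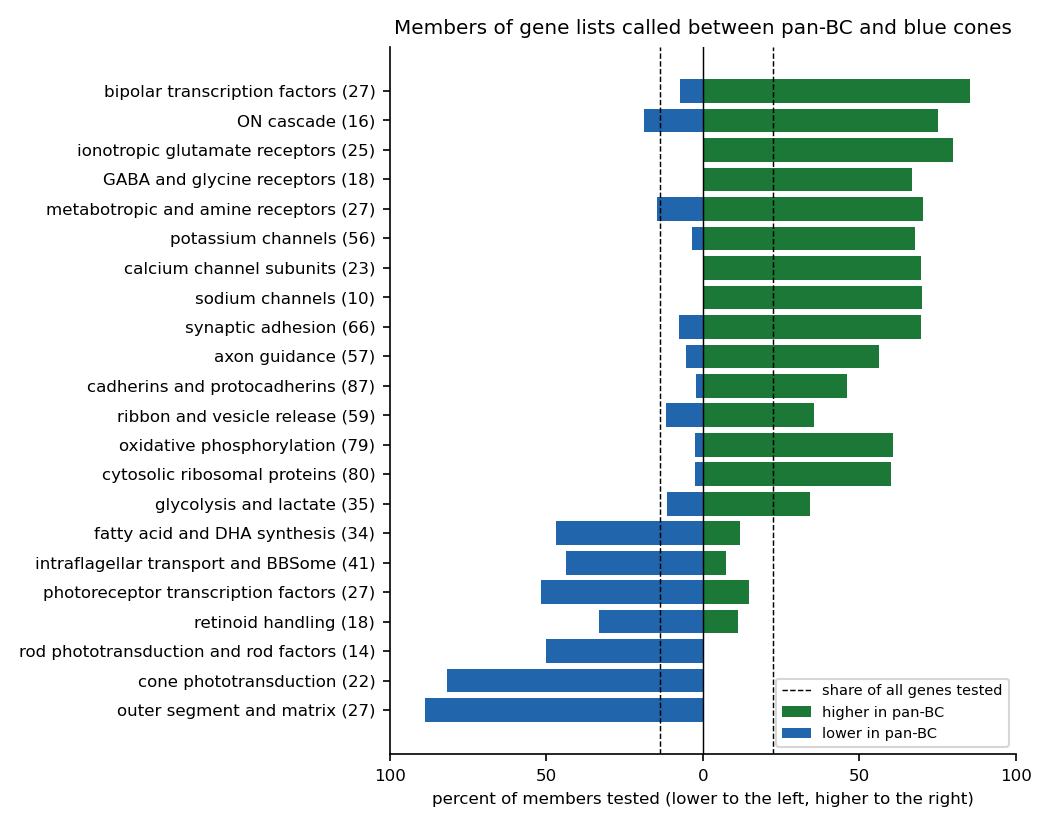
Percent of the members tested (their number in parentheses) that were called higher (green, to the right) or lower (blue, to the left) in pan-BC than in blue cones in 22 gene lists; dashed lines mark the shares over all genes tested, 22.5% higher and 13.7% lower. Receptor, channel and bipolar factor lists lie to the right and the outer segment and phototransduction lists to the left.

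Of 59 genes for the ribbon and vesicle release, 21 were higher (35.6%, against 22.5% of all genes tested), 7 lower (11.9%, against 13.7%) and 31 not called (median 1.12). Snap25 and Slc17a7, a membrane fusion protein and the vesicular glutamate transporter, were at 83934, 84455 and 78739.5 and 5083, 5209 and 5710.2 in pan-BC and at 65143, 77078 and 83713 and 4262, 5009 and 5895 in blue cones. The groups overlapped for both (log2 fold changes 0.14 and 0.09, SE 0.23 and 0.14, adjusted p = 1 and 1). Ctbp2, whose locus encodes the ribbon protein RIBEYE, was at 8963, 8414 and 9252 against 10453, 10609 and 10432 without a call (log2 fold change -0.24, SE 0.11, adjusted p = 1). Cplx3, a complexin of ribbon synapses, was not called, at 49677, 49741 and 45513 against 21405, 26456 and 28701 (log2 fold change 0.93, SE 0.18, adjusted p = 1), whereas Cplx4 was lower at 10983, 10151 and 8504 against 53419, 62881 and 56340.5 (log2 fold change -2.55, SE 0.16, adjusted p = 1.64e-07). Of the higher genes, Syt4, a synaptotagmin, was at 41194, 41074 and 36093 against 247, 302 and 324, and Cadps, a priming factor for dense core vesicles, at 9212, 9470.3 and 10202 against 105, 105 and 194 (log2 fold changes 7.08 and 6.21, SE 0.23 and 0.24, adjusted p = 1.73e-12 and 1.32e-11). Among 24 calcium-binding protein genes, 14 were higher (58.3%, against 22.5% of all genes tested) and 5 lower (20.8%, against 13.7%). Cabp4, which modulates the photoreceptor calcium channel, was at 2207, 2437 and 2945 in blue cones and 134, 85.7 and 102 in pan-BC (log2 fold change -4.56, SE 0.48, adjusted p = 4.42e-06), and Cabp5 was high in both classes, at 39537, 43236 and 31929 in pan-BC and 25242, 29459.7 and 26999.7 in blue cones (log2 fold change 0.48, SE 0.17, adjusted p = 1). Scgn and Hpca, the calcium sensors secretagogin and hippocalcin, were at 40769, 43528 and 38386 and 1751, 2185 and 1558 against 429, 560.0 and 802 and 1.5, 6.07 and 11.1 (log2 fold changes 6.14 and 8.24, SE 0.24 and 0.50, adjusted p = 1.48e-11 and 1.93e-09).

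Genes of cell contact and wiring were higher in pan-BC for 46 of 66 synaptic adhesion genes (5 lower; median 3.81), 32 of 57 axon guidance genes (3 lower; median 2.46) and 40 of 87 cadherins and protocadherins (2 lower; median 1.68). Ptprd, a receptor phosphatase that organizes synapses, was at 7642, 7270.2 and 8795 in pan-BC against 9.03, 53.1 and 37 in blue cones. Cntn5, a contactin, was at 1577, 1198 and 1332 against 4.51, 0.759 and 5.18, and Pcdh9 at 9424, 6925 and 9635 against 62.4, 44 and 107. The classes were separate in every library (log2 fold changes 8.17, 8.44 and 6.99, SE 0.43, 0.61 and 0.24, adjusted p = 3.46e-10, 1.37e-08 and 3.24e-12). Nrxn3, a presynaptic neurexin, was high in both classes and not called, at 18564, 15643 and 18200.1 against 10521, 7175 and 7126 (log2 fold change 1.10, SE 0.18, adjusted p = 0.612), while rods averaged 124. Elfn1, which photoreceptors place at their synapse with ON bipolar cells, was at 546, 651 and 414 in blue cones and 24.5, 22.2 and 55.1 in pan-BC (log2 fold change -4.04, SE 0.76, adjusted p = 0.00186). Clstn1, a calsyntenin, was lower too, at 2811, 2929 and 3129.8 against 12201, 11509 and 13912 (log2 fold change -2.08, SE 0.12, adjusted p = 5.17e-07). Slit2 and Epha3, a guidance ligand and an ephrin receptor, were at 2738, 2745 and 2962 and 1119, 1107 and 1145 in pan-BC and 17.3, 19.7 and 82.9 and 8.27, 1.52 and 34.8 in blue cones, and both were more abundant in OFF-BC (means 10215 and 3738) than in ON-BC (609 and 486). Epha10 had the opposite order, at 9501, 7211 and 5692 in blue cones and 993, 927 and 1224 in pan-BC (log2 fold change -2.81, SE 0.22, adjusted p = 1.39e-06).

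Of the genes called higher in pan-BC, 285 (9.01%) were also higher in ON-BC than in OFF-BC and 208 (6.58%) in OFF-BC than in ON-BC, against the 2.95% and 3.6% of all genes tested. Of those called lower, 30 (1.57%) and 102 (5.33%) were, and as stated 7 of 8 cone markers were among the genes higher in OFF-BC.

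Energy metabolism gave mixed results. Of 35 genes of glycolysis and lactate transport, 12 were higher (34.3%, against 22.5% of all genes tested) and 4 lower (11.4%, against 13.7%; median 0.51). Hk2, the hexokinase of photoreceptors, was at 23714, 27431 and 25187 in blue cones and 1343, 1213 and 1075 in pan-BC, whereas Hk1 was at 14811, 15893 and 14629 and 9269.7, 8109 and 9135. Only the first difference passed the test (log2 fold changes -4.40 and -0.78, SE 0.30 and 0.13, adjusted p = 3.02e-08 and 1). The lactate transporter genes had opposite orders, Slc16a1 at 275, 289.5 and 270.4 in pan-BC against 3163, 3555 and 3728 and Slc16a7 at 746, 907 and 992 against 11.3, 15.9 and 11.8. Both were separate (log2 fold changes -3.64 and 5.98, SE 0.14 and 0.43, adjusted p = 8.23e-11 and 2.48e-08), and Slc16a7 averaged 5271 in OFF-BC and 42.8 in ON-BC. Of 79 oxidative phosphorylation genes, 48 were higher and 2 lower (median 1.53), and of 80 cytosolic ribosomal protein genes 48 and 2 (median 1.81). Atp5e, a small subunit of ATP synthase, was at 3828, 3879 and 3390.4 in pan-BC and 438, 421 and 669 in blue cones, and Rps21 at 2021, 2165 and 1856 and 177, 178 and 265 (log2 fold changes 2.89 and 3.30, SE 0.15 and 0.15, adjusted p = 1.29e-08 and 1.23e-09). The large catalytic subunits Atp5b and Sdha were not called (log2 fold changes -0.31 and -0.73, SE 0.15 and 0.12, adjusted p = 1 and 1). Ribosomal protein genes have near-identical pseudogenes, so their counts, and those of Rpl29 and Rps3a1 that were lower, are uncertain.

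These last lists went together with short transcripts. Of the oxidative phosphorylation genes tested, 50 had a summed exon length under 1 kb, and of the cytosolic ribosomal protein genes 57. Over the 13264 genes tested that had an exon length, the median log2 fold change between pan-BC and blue cones was 1.18 in the 904 genes under 1 kb, 0.33 from 1 to 2 kb, -0.14 from 2 to 4 kb, 0.0037 from 4 to 8 kb and 0.86 over 8 kb. The medians of ON-BC and OFF-BC against blue cones for genes under 1 kb were 1.11 and 1.34, while that of rods, which came from the same earlier study as the blue cones, was 0. The part of transcript length in the calls was examined by centring each library within 20 classes of exon length, an alternative chosen after seeing the data. It left 8 oxidative phosphorylation genes higher and 3 lower, 15 and 4 cytosolic ribosomal protein genes, and 1 and 3 of the 76 mitochondrial ribosomal protein genes, of which 10 were higher and none lower without it. For the receptor, channel, bipolar factor, phototransduction and outer segment lists the same centring changed each count by at most 2 genes.

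**Figure D4:**
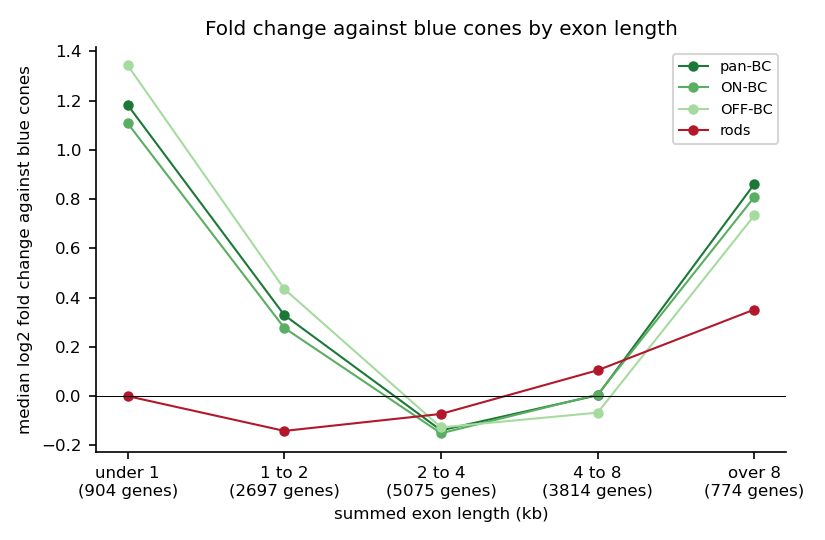
Median log2 fold change against blue cones in 5 classes of summed exon length (number of genes in parentheses) for pan-BC, ON-BC, OFF-BC and rods. The 3 bipolar populations lie above 1 for genes under 1 kb, where rods lie at 0.

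Clock and ligand-regulated genes changed in both directions. Of 25 clock and melatonin genes, 9 were higher (36%, against 22.5% of all genes tested) and 2 lower (8%, against 13.7%). Ciart and Hlf, both under circadian control, were at 2024, 2336 and 1829 and 6544, 6960.5 and 6649.9 in pan-BC against 92.5, 114 and 103 and 363, 349 and 417 in blue cones (log2 fold changes 4.31 and 4.16, SE 0.23 and 0.12, adjusted p = 1.99e-09 and 1.26e-12), and Tph1, the first enzyme of serotonin and melatonin synthesis, was at 535, 495 and 598 in blue cones and 1.06, 1.01 and 3.67 in pan-BC (log2 fold change -7.66, SE 0.77, adjusted p = 8.85e-07). Nr1d1 was not called, at 14103, 13854 and 15140.1 against 7730.1, 9016 and 8554 (log2 fold change 0.77, SE 0.13, adjusted p = 1). The time of day of the dissections is not given in the sources used here. Of 19 xenobiotic receptor, PPAR and PGC-1 genes, 9 were lower (47.4%) and 4 higher (21.1%). Ppara, a nuclear receptor of fatty acid oxidation, had 1 read over the pan-BC libraries and was at 516, 289.9 and 250.2 in blue cones, a ratio of 967 (95% counting interval 173 to 38203). The coactivator genes Ppargc1a and Ppargc1b had opposite orders, at 319, 272 and 301 and 2225, 1995 and 1996 in pan-BC against 2420.3, 2099.7 and 1843 and 366, 244 and 299.8 (log2 fold changes -2.82 and 2.79, SE 0.18 and 0.13, adjusted p = 1.43e-07 and 2.36e-09). Of 24 immediate early and heat shock genes, 7 were lower (29.2%) and 2 higher (8.33%). Among the lower were Jun (190.4, 132 and 230.0 against 1135, 1164 and 1448) and Hspa1a (10.6, 4.04 and 11 against 206, 332 and 274). Egr1 varied within pan-BC, at 1649.7, 282 and 1801, and was not called although all blue cone libraries were higher (3236, 2931 and 4758).

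Chromatin accessibility at promoters was compared in the ATAC-seq libraries of the same classes, 2 of pan-BC (postnatal days 44 and 43) and 2 of blue cones (postnatal day 56), with 7937202 and 12345845 against 4572550 and 8058443 counted reads. Regions of 200 bp centred within 1000 bases before to 100 after a RefSeq transcript start were taken as promoter regions, and the same test was applied. Each gene is represented by its promoter region with the highest mean over the 4 libraries. Of 16492 such regions, 11.5% were more accessible in pan-BC and 3.76% less. Scaling by TMM gave 1463 and 1214 regions in place of 1899 and 620. Without pan-BC replicate 2, 1651 regions were called in place of 2519. Among the 2224 genes called higher in pan-BC that had a tested promoter region, the region was more accessible for 28.8% and less for 1.08%. Among the 1613 called lower, these shares were 3.97% and 11.8%, and among the 7427 without a call 5.32% and 2.22%. The median ATAC-seq log2 fold changes were 0.56, -0.35 and -0.19.

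**Figure D5:**
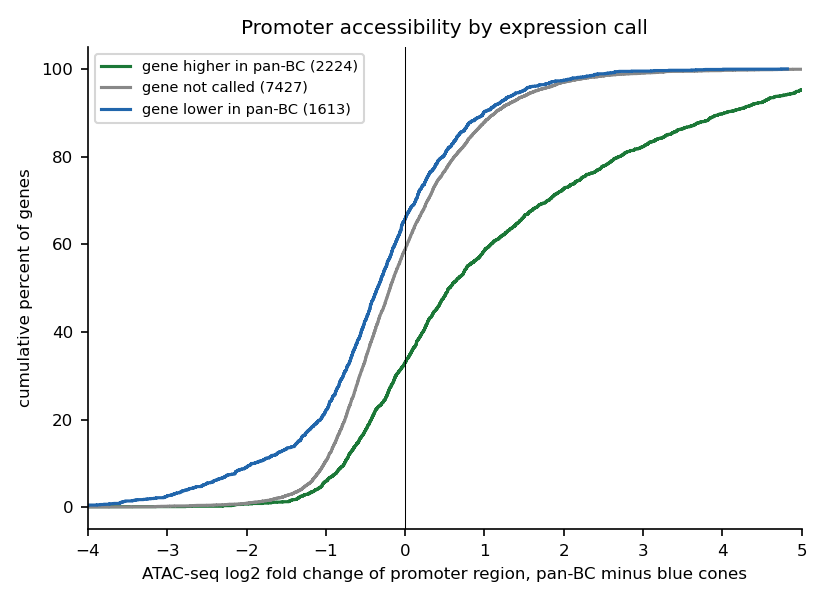
Cumulative percent of genes (vertical) by the log2 fold change in ATAC-seq of their promoter region, pan-BC minus blue cones (horizontal), for genes called higher, not called or called lower in RNA-seq. The curve of the higher genes lies to the right, with medians of 0.56, -0.19 and -0.35.

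Named genes gave examples of both agreement and its absence. Of the named genes with a tested promoter region, 73 higher genes had a more accessible promoter, 1 a less accessible one and 77 neither, and 41 lower genes had a less accessible promoter, 6 a more accessible one and 82 neither. The Isl1 promoter region held 267 and 365 normalized ATAC-seq counts in pan-BC and 0 and 2.89 in blue cones (log2 fold change 7.31, SE 0.60; adjusted p = 8.02e-07), and that of Arr3 20 and 17.7 and 279.8 and 269.6 (-3.80, SE 0.34; adjusted p = 5.44e-06). By contrast Pde6c and Rxrg, each over 64-fold lower in pan-BC, had promoter regions at 119 and 129 and 25.6 and 22.8 in pan-BC against 142 and 148 and 27.2 and 23.1 in blue cones, without a call. The Thrb region was at 283 and 436 against 483 and 380.1, where the libraries overlapped. Elovl2 was at 128 and 139 against 278 and 314, lower in both pan-BC libraries but not called (adjusted p = 0.412).

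Promoter sequences are shown for 4 genes in each direction, from the most abundant named genes whose promoter region changed with expression, Syt4 left out (RefSeq, GRCm38.p6, gene strand, 250 bases before to 50 after the gene start), to show where the DNA words that homeodomain and basic helix-loop-helix factors read occur in them. Capitals mark matches, on either strand, to TAATCC (reverse GGATTA), the word of Otx2 and Crx, to TAATTA or TAATTG (reverse CAATTA), words of other homeodomain factors, and to CANNTG, the E-box, which may overlap them (CAATTG). Scg2, Trpm1, Gng13 and Gabrr2 were higher in pan-BC with a more accessible promoter, and Opn1sw, Sag, Rbp3 and Gnat2 lower with a less accessible one.
Scg2, chr1:79439977-79440276, minus strand: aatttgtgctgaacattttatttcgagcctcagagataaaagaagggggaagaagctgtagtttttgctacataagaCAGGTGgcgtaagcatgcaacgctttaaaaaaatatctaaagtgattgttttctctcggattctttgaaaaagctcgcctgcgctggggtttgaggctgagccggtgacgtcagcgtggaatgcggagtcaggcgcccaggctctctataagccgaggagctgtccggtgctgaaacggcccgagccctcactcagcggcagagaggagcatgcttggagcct
Trpm1, chr7:64153585-64153884, plus strand: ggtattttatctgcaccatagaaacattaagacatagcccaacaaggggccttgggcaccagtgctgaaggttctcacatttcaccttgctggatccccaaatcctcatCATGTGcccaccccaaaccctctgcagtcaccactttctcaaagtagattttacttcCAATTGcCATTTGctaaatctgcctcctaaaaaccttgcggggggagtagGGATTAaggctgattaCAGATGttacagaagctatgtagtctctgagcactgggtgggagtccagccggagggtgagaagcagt
Gng13, chr17:25716922-25717221, plus strand: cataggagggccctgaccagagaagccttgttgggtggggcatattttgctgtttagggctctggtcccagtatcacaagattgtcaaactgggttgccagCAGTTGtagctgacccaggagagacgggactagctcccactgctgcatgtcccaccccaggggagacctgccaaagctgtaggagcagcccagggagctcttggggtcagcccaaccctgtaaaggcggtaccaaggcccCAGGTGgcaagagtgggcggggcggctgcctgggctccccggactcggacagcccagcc
Gabrr2, chr4:33062862-33063161, plus strand: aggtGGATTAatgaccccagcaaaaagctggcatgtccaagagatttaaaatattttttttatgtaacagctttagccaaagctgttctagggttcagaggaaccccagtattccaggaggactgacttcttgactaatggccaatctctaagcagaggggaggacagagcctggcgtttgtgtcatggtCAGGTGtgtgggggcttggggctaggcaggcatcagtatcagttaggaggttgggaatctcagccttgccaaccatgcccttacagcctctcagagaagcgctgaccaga
Opn1sw, chr6:29380464-29380763, minus strand: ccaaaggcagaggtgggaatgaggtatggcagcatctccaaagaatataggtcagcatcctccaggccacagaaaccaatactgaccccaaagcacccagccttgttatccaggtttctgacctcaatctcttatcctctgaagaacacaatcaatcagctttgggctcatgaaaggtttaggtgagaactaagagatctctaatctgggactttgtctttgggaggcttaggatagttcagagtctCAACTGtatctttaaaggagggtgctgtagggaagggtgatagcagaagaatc
Sag, chr1:87803430-87803729, plus strand: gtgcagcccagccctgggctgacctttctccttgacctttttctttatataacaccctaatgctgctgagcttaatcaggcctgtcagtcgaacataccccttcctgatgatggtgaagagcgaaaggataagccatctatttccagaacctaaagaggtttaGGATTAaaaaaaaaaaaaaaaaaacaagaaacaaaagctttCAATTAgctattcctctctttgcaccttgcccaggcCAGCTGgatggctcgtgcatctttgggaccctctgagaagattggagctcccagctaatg
Rbp3, chr14:33953753-33954052, plus strand: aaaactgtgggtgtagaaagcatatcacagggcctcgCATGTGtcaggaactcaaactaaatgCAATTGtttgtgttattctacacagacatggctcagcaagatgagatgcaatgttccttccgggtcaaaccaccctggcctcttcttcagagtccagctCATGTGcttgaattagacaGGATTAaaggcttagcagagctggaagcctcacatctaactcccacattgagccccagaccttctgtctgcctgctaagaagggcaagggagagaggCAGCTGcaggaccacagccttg
Gnat2, chr3:108092816-108093115, plus strand: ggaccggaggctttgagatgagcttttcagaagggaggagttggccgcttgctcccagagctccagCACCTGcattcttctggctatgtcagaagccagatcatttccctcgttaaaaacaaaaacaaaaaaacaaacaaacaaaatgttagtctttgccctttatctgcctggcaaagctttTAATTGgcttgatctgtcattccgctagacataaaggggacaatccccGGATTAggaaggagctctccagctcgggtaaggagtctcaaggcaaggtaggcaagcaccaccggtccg

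The promoter regions of these genes held, in pan-BC against blue cones, 198 and 266 against 38.9 and 41.9 for Scg2, 80 and 99.2 against 5.18 and 1.45 for Trpm1, 65.6 and 43.3 against 2.59 and 12.3 for Gng13 and 106 and 157 against 13 and 7.23 for Gabrr2. The order was reversed for Opn1sw (22.4 and 23.9 against 242 and 221), Sag (73.6 and 60.4 against 332 and 288), Rbp3 (72.8 and 98.6 against 526 and 481) and Gnat2 (32.8 and 26.8 against 249 and 239). In all 8 both libraries of one class lay above both of the other. The 8 were chosen for a promoter region called the same way as expression, so this separation is no independent result. The tested region was centred at position -336 from the start for Gnat2, so nearly all of it lies outside the printed sequence, and at -194 to -11 for the other genes. TAATCC occurred once in Trpm1, Gabrr2, Sag, Rbp3 and Gnat2, and TAATTG in Sag and Gnat2. All 8 held at least 1 E-box, as did 72.3% of the 32851 promoters in the table and 64.6% of those of genes tested. E-boxes occurred in 68.0% of promoters of genes higher in pan-BC and 65.5% of those of genes lower. The order was the opposite for genes over 16-fold higher (68.9%) and over 16-fold lower (74.2%). TAATCC was found in 7.06% of all promoters, 5.88% of those of genes tested, 5.28% of those of genes higher in pan-BC and 8.73% of those of genes lower. For genes over 16-fold lower the share was 12.7%, and for genes over 16-fold higher 5.11%. TAATTA or TAATTG occurred in 7.41% of promoters of genes higher in pan-BC and 8.79% of those of genes lower. The shares were 8.60% for genes over 16-fold higher and 13.0% for those over 16-fold lower, against 7.24% for genes tested.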

How the data were processed

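RNA-seq of 15 libraries (3 each of pan-BC, ON-BC, OFF-BC, blue cones and rods) and ATAC-seq of pan-BC and blue cones (2 each) were used. Per the labels, the authors aligned reads to mm10 (STAR 2.7.0d for RNA, Bowtie2 2.2.5 for ATAC), counted them per gene or per 200 bp region, and deposited counts divided by size factors, a normalized signal and not raw counts. All RNA and ATAC values above 0 came out as whole reads when divided by the step of their library (100%, tolerance 0.01), and these recovered reads gave the depths and the count tests.

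log2(normalized count + 1) was fitted in limma 3.58.1 (R 4.3.3) with 1 model for the 15 RNA libraries, after edgeR 4.0.16 had filtered low counts, and tested by treat against a log2 fold change of 1 with a mean-variance trend, two-sided, with Benjamini-Hochberg adjustment over all genes tested. Fold changes are on the log2(value + 1) scale and understate those of low genes. "At least" folds set the lower group at 3 counts over its libraries, and counting intervals cover counting error only (95%). On data simulated from these libraries (14024 genes), limma recovered 74 of 100 genes changed 4-fold and 98 of 100 changed 16-fold, with none of the unchanged genes called. The unchanged genes were simulated without any change, so a test against a 2-fold change could hardly call them. Far fewer genes were changed than were called in the data, and each gene had 1 dispersion in all populations. The simulation therefore does not give the error rate of this comparison. With 3 libraries a group, an exact permutation test of 1 gene could not go below p = 0.1, so none was used.

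Named genes were the 10 called genes with the largest change in each direction (mean of at least 100 in the higher class), the 10 most abundant called in each direction, and in each list the defining members, up to 6 called members in each direction and up to 4 members without a call by mean. Members and lists were chosen with earlier results of these data known. Replicate numbers did not pair the pan-BC and blue cone libraries. ON-BC and OFF-BC libraries of the same number share an age and may come from the same sort. The test of ON-BC against OFF-BC took no account of this pairing. Alternatives were another scaling, pseudocount, filter, test, threshold or set of libraries, edgeR and DESeq2 1.42.0 on recovered reads, and leaving out each library. The peak lists were not used here, and some named genes are not reported here.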

Additional observations from a re-analysis of the deposited data

How the results depend on the processing

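Of 9562 values recomputed for 504 named genes under 19 alternatives, 9234 kept their direction and side of the threshold, 228 (in 97 genes) lost and 100 (in 47 genes) gained a call, and none reversed. Against 5077 genes called (3162 higher and 1915 lower in pan-BC), a threshold of 4-fold (log2 fold change of 2) gave 2463 (1744 and 719), an edgeR F test with a minimum fold 7234 (4086 and 3148), and centring by exon length, chosen after seeing the data, 4547 (2619 and 1928), of which 2507 and 1640 were shared with the main test. Leaving out a library gave 4694 to 4969 genes called, 2939 to 3100 higher and 1755 to 1869 lower. DESeq2 gave 4839 (3021 and 1818), with no adjusted p for 13 genes. The replicate block gave 5040 genes (3143 and 1897). The deviations of same-numbered pan-BC and blue cone libraries correlated at -0.024, 0.009 and -0.081, and no library pair was closest by its own number. Of the 2519 promoter regions called (1899 more and 620 less accessible), edgeR glmTreat gave 3928 (1950 and 1978), TMM 2677 (1463 and 1214) and the replicate block 2494 (1886 and 608), and leaving out a library 1651 to 2328, with the lowest, 1651 (1210 and 441), without pan-BC replicate 2. Depth limits the low genes, and ATAC-seq, with 2 libraries a class, limits the promoter calls. The cause of these shifts was not tested.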

Other observations

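Smaller gene groups held single genes that differed. Over all genes tested, 22.5% were higher and 13.7% lower. Of 6 connexin and pannexin genes tested, 5 were higher in pan-BC. Gjd2, the main connexin of neuronal gap junctions, was at 853, 838 and 971 in pan-BC against 134, 133 and 87.3 in blue cones (log2 fold change 2.92, SE 0.18, adjusted p = 6.74e-08). Of 5 protein kinase C genes, 3 were higher and 1 lower. Prkca, the classical marker of rod bipolar cells, was at 5417, 5910.4 and 5069 against 194, 181 and 114 (log2 fold change 5.09, SE 0.48, adjusted p = 9.62e-07) and averaged 8239 in ON-BC and 235 in OFF-BC. Fam19a3, a secreted chemokine-like protein gene, was lower in pan-BC, at 5032, 5184 and 6818 against 23170.0, 21746 and 17202 (log2 fold change -1.87, SE 0.18, adjusted p = 0.000393), whereas Fam19a4 was higher, at 437, 526 and 445 against 8.27, 6.83 and 1.48 (log2 fold change 6.38, SE 0.48, adjusted p = 3.6e-08). Of 45 extracellular matrix and integrin genes, 18 were higher and 4 lower, among them the collagen IV genes Col4a1 (1232, 1483 and 1509.8 in pan-BC against 48.9, 31.1 and 22.9) and Col4a5 (13.8, 25.2 and 23.2 against 490.4, 452 and 526). Of 43 kinesin and dynein genes, 10 were higher (23.3%) and 8 lower (18.6%). Kif5c, a neuronal kinesin heavy chain, was at 1605, 1734 and 1954 against 30.1, 32.6 and 34.8 (log2 fold change 5.72, SE 0.18, adjusted p = 1.49e-12), and Dync1li1, a dynein light intermediate chain, at 775, 657 and 724 against 4847, 5092 and 5013 (log2 fold change -2.79, SE 0.14, adjusted p = 8.05e-09). Of 35 chromatin genes, 2 were higher (5.71%) and 4 lower (11.4%), among them Stag2, a cohesin subunit, at 683, 690.0 and 679 against 3032, 2636 and 2981 (log2 fold change -2.07, SE 0.14, adjusted p = 2.35e-06). Rab GTPases (15.4% higher and 13.5% lower of 52), chloride and glutamate transporters (3 and 1 of 14) and proteasome genes (5 and 1 of 46) were mostly without a call. Scaling to library totals alone raised the proteasome count to 13 higher.

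Other cell type markers were low or divided. Of 12 Muller glia markers, 2 were higher and 1 lower, with summed levels of 45478 to 51968 in pan-BC and 33624 to 39459 in blue cones, most of it from Car2. Of 6 endothelial markers tested, Lyve1 and Esam were higher. Esam was at 2260.3, 2507 and 2031 in pan-BC against 34.6, 59.9 and 118 in blue cones and averaged 13188 in OFF-BC and 55.7 in ON-BC, while Pecam1 was at 14.9, 13.1 and 7.34 against 3.76, 14.4 and 8.14 and Cdh5 at 0 in 2 of the 3 pan-BC libraries. Of 5 amacrine markers tested, 4 were higher and 1 lower, and of 6 ganglion cell markers 3 and 2. Pericyte markers summed to 72.3 to 117 in pan-BC against 17.5 to 34.8, pigment epithelium markers to 78.7 to 116 against 57.7 to 69.6, horizontal cell markers to 22.2 to 99.1 against 22.0 to 67.7 and erythrocyte markers to 27.7 to 34.3 against 11.4 to 18.8.

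Some genes lay outside the range of the ON-BC and OFF-BC libraries. By a rule set after the data were seen (mean of at least 100, and at least 2-fold outside all 6 ON-BC and OFF-BC libraries), 12 genes were above both and 22 below both. Klk1b22 averaged 726 in pan-BC against 35.8 in ON-BC and 49 in OFF-BC, Tuba1c, a tubulin, 1044 against 121 and 158, and Lrrtm1, a synaptic adhesion protein, 448 against 94.7 and 79.8. Among those below both was Ccl27a, a chemokine gene, at 4.52 against 333 and 363. Of the 34 genes, 12 were higher in pan-BC than in blue cones, 18 lower and 4 not called. Pan-BC may hold bipolar cells that fall in neither of the other gates, and the Grm6-YFP reporter is present in those sorts alone. By RT-qPCR, the paper found Lrrtm1 and the ON marker Isl1 in cells of low YFP between the ON-BC and OFF-BC gates. It concludes that the ON bipolar type marked by Lrrtm1 was left out of both sorts. The part of such cells or of the reporter in the genes of this rule was not tested.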
